A study of Homo sapiens with 12 samples.

Results

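Acetylation of lysine 9 on histone H3 (H3K9ac) was followed at 10 target genes of KMT2A fusion proteins in MOLM-13 cells with and without an inhibitor of the acetyltransferase KAT6A. They were MEF2C, MYB, ZEB2, SOX4, LMO2, MBNL1, SENP6, CPEB4, IGF2BP2 and CCNA1. The deposited table measures no fusion binding, so calling them targets rests on background knowledge. Every row of that table that overlapped a gene's RefSeq span with 5 kb added on each side was taken, which gave 189 of 47648 rows. A row is 1 region of the hg38 genome. Of the 189, 17 lay within 1 kb of a RefSeq start site and are called promoter regions, and 172 are called other regions. For LMO2 either annotated end stood in for the start. MBNL1 held 51 of the rows, SENP6 38, MEF2C and IGF2BP2 29 each, MYB 15, ZEB2 and LMO2 10 each, SOX4 3, and CPEB4 and CCNA1 2 each.

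MOLM-13 cells are an established human line from acute myeloid leukaemia, known for a fusion of KMT2A with MLLT3 and for a FLT3 internal tandem duplication. The series asks how blocking KAT6A alters the chromatin of these cells. Chromatin immunoprecipitation sequencing gave 3 H3K9ac libraries from cells in the solvent DMSO and 3 from cells given 4 µM of the small molecule WM-1119 for 4 days. The labels state no time for DMSO. The 6 input samples among the series' 12 were not analysed here. All libraries come from this single line and carry its fusion. The labels do not say that replicates came from separate cultures, and the spread that the p-values rest on may then be technical.

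A KMT2A fusion joins the chromatin-binding part of KMT2A to a partner such as MLLT3, which brings elongation factors and the methyltransferase DOT1L to the genes it occupies. These genes keep a progenitor programme switched on in the leukaemia. H3K9ac marks active promoters and enhancers and is read by proteins of the elongation machinery, among them YEATS domain proteins such as MLLT3. Of the 10 genes, MEF2C, MYB, ZEB2 and SOX4 encode transcription factors, LMO2 an adaptor that joins blood transcription factors in a complex, MBNL1, CPEB4 and IGF2BP2 RNA-binding proteins, SENP6 a protease that trims SUMO chains, and CCNA1 cyclin A1.

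The promoter sequences were set beside the acetylation. RefSeq start sites of GRCh38.p14 were found for 9 of the 10 genes, 18 sites in all, and not for LMO2. The 250 bases before the start are shown for SENP6 and CPEB4, which had the most and the least H3K9ac per kb when each gene is taken at its strongest promoter region, for MYB, and for a strong and a weak start of MEF2C. They come from SENP6 (chr6:75601630-75601879, plus strand); MYB (chr6:135181058-135181307, plus strand); from MEF2C (chr5:88883185-88883434, minus strand for the strong and chr5:88785512-88785761, minus strand for the weak start); and from CPEB4 (chr5:173888099-173888348, plus strand). Capitals mark matches, on either strand, to the motifs searched. The general promoter motifs were TATAAA for the TATA box, CCAAT for the box of that name and GGGCGG for the GC box. The motifs of blood transcription factor families were CGGAAG for the ETS family and TGTGGT for the RUNX family. The search also took CACGTG for the E-box that MYC binds, and CAACTG for MYB itself..
SENP6: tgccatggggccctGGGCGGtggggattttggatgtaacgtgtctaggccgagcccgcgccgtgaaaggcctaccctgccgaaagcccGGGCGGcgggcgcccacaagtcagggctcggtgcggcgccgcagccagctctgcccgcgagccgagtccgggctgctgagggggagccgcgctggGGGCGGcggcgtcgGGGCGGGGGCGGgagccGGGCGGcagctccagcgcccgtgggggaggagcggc
MYB: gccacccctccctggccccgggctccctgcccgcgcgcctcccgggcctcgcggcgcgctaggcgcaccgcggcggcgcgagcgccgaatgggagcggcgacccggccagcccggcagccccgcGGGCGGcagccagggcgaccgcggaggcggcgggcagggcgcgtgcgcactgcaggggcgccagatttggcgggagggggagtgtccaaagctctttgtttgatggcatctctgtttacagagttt
MEF2C at its strong start: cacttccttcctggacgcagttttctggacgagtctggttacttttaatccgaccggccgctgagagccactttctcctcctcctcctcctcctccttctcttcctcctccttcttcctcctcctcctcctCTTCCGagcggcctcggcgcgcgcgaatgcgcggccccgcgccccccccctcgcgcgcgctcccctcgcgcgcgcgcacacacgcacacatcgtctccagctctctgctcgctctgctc
MEF2C at its weak start: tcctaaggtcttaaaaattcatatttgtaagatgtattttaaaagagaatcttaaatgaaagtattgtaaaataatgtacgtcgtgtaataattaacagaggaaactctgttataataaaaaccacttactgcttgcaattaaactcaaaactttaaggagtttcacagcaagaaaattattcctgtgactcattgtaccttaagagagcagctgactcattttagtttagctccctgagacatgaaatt
CPEB4: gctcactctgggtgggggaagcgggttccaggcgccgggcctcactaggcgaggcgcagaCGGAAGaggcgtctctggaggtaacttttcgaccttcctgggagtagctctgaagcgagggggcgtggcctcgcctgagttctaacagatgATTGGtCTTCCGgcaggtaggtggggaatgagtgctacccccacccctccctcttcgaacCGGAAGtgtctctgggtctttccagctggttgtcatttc

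The windows differed in CpG content. Over the full window of 250 bases before and 50 after the start, SENP6 was 77.0 % GC with 40 CpG pairs and 6 GC box matches. MYB was 71.0 % GC with 35 CpG pairs and 1 GC box match. The strong MEF2C start had 32 CpG pairs and the weak one 2, at 64.7 % and 31.7 % GC. CPEB4 had 20 CpG pairs and 3 ETS matches. Of the 18 member windows 5 held a GC box, 5 an ETS motif, 4 a CCAAT box, 1 a TATA box, 1 an E-box, and 0 the RUNX or the MYB motif. Among all 34943 RefSeq windows the shares were 44.9 % for the GC box, 19.4 % for ETS, 34.6 % for CCAAT, 11.6 % for TATA, 7.23 % for the E-box, 13.1 % for RUNX and 11.4 % for MYB. Several of the 18 windows belong to 1 gene, and 2 of MBNL1 overlap, so they are not independent.

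Depth and background differed between the libraries. Levels are in CPM, reads per 1000000 reads that fall in the listed regions. DMSO replicate 1 had 719329 and DMSO replicate 2 had 1298443 such reads, and the other 4 libraries 4542322 to 12705349. A count of 0 allows up to 4.17 CPM in the shallowest library and 0.236 CPM in the deepest, for counting error only. DMSO replicates 1 and 2 held 8.95 % and 7.19 % of their CPM in regions weaker than the median region, against 2.19 % to 3.35 % in the other 4 libraries. Their background, the 10th percentile of CPM per kb in regions of over 500 and up to 1200 bp, was higher as well. On chromosome 6, which carries MYB, SOX4 and SENP6, it was 12.2 and 10.8 CPM per kb in these 2 libraries and 3.91 to 5.73 in the rest. The myeloid identity of the cells was visible. Of 7 myeloid marker genes 6 had a promoter or end region of at least 10 CPM, among them SPI1 and CEBPA. Of 13 T cell, B cell, erythroid, epithelial or stromal markers 0 did. For SPI1, as for LMO2, either annotated end stood in for the start. Because each library is scaled to the same total, a gain or loss over the whole genome cannot be seen.

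At their strongest promoter regions, 9 of the 10 genes lay above 81.9 % of all regions in mean CPM, and CPEB4 stood at that percentile. Acetylation formed broad domains. The region at the strong MEF2C starts was 19.4 kb wide, that of IGF2BP2 14.2 kb, ZEB2 13.03 kb, MBNL1 9.96 kb and MYB 7.00 kb. These 5 of 10 exceeded 5 kb, as did 2.34 % of 11171 regions at the starts of coding genes. The 2 shares are not like for like, since the 10 are the strongest promoter region of each gene. Their median level was 449.5 CPM, against 44.5 CPM over the tested regions at coding starts. LMO2 (4.73 kb), SENP6 (4.23 kb), SOX4 (3.78 kb), CCNA1 (2.20 kb) and CPEB4 (1.63 kb) were narrower. In mean level per kb over the 6 libraries SENP6 came first, at 114 CPM per kb, and MYB next at 70.4. SOX4, MBNL1 and IGF2BP2 followed at 48.3, 44.6 and 40.8 CPM per kb, then ZEB2 at 34.9, MEF2C at 32.4, CCNA1 at 32.1, LMO2 at 25.0 and CPEB4 at 20.1. Neighbours in this order overlapped in their range over libraries, except CCNA1 (28.8 to 35.6 CPM per kb) and LMO2 (22.5 to 27.2). SENP6 spanned 73.0 to 138 CPM per kb and MYB 45.3 to 89.7. SENP6 and SOX4, at 36.5 to 69.0, did not overlap. The MEF2C, ZEB2 and MBNL1 domains also overlap the antisense genes MEF2C-AS1, ZEB2-AS1 and MBNL1-AS1, and ChIP reads cannot be assigned between them.

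**Figure D1:**
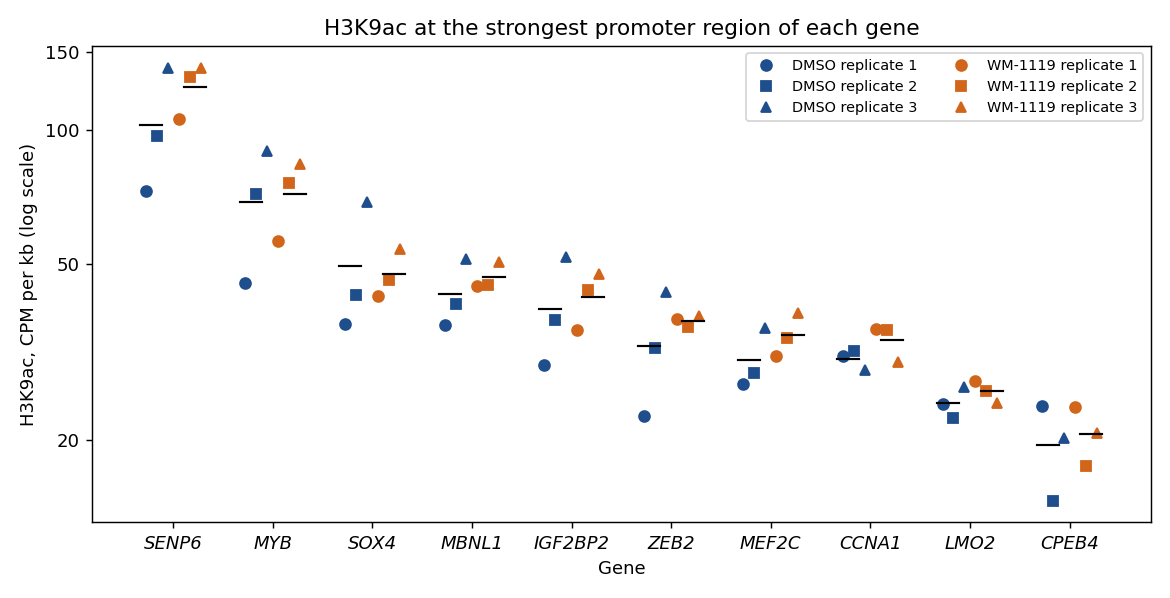
H3K9ac at the strongest promoter region of each gene, in CPM per kb on a log axis, with 1 point per library (DMSO blue, WM-1119 orange) and a bar at each group's mean. In each of the 10 genes the DMSO and WM-1119 points overlap, and SENP6 is highest with 114 CPM per kb on average.

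No promoter region of the 10 genes passed the test for WM-1119 against DMSO. Of 17, all tested, 0 reached an adjusted p of 0.05 in limma, beside 0.0603 % of all 44763 tested regions, and 0 had an unadjusted p under 0.05 in either direction. Among 10937 tested regions at coding starts 0.0183 % passed, and 2.11 % were lower and 8.16 % higher at an unadjusted p under 0.05. In each of the 10 strongest promoter regions the 2 groups overlapped. The estimates were slightly above 0 in 9 of these 10, with a median log2 change of 0.13 on the log2(CPM + 1) scale, beside 0.23 over all regions of 100 CPM or more on average. Against DMSO replicate 3 alone the median of the 10 was -0.14. The shallow DMSO replicates 1 and 2 were both below DMSO replicate 3 at 8 of the 10 regions.

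Among the transcription factor genes, MEF2C, a MADS-box factor, held 517, 549 and 693 CPM under DMSO (replicates 1, 2 and 3) and 600.1, 657 and 749 CPM under WM-1119 (replicates 1, 2 and 3) in its 19.4 kb domain on chromosome 5 (88872005 to 88891376). The groups overlapped, and the log2 change was 0.20 ± 0.13 (SE, adjusted p = 0.434 by limma). MYB, a regulator of blood progenitors, held 317, 501.4 and 627 CPM under DMSO and 393, 530.4 and 586 CPM under WM-1119 at chromosome 6 position 135179417 to 135186412. Its lowest and its highest value were both DMSO libraries, and the log2 change was 0.097 ± 0.23 (SE, adjusted p = 0.807 by limma). ZEB2, a zinc finger repressor, held 295, 419.7 and 561 CPM under DMSO and 489, 468 and 495 CPM under WM-1119 at chromosome 2 position 144507366 to 144520392, with a log2 change of 0.24 ± 0.15 (SE, adjusted p = 0.422 by limma). The WM-1119 libraries were close together there, inside the wide DMSO range. SOX4, an HMG-box factor, held 138, 160.2 and 261 CPM under DMSO and 159.6, 173 and 204 CPM under WM-1119 at chromosome 6 position 21593476 to 21597251. DMSO replicate 3 stood above the other 5 libraries, and the log2 change was -0.0092 ± 0.17 (SE, adjusted p = 0.975 by limma). LMO2 held 114, 106 and 124 CPM under DMSO and 129, 122 and 115 CPM under WM-1119 at its end region on chromosome 11 (33890541 to 33895269). No library stood apart there, and the log2 change was 0.085 ± 0.16 (SE, adjusted p = 0.748 by limma). Without DMSO replicate 1 the estimate of MYB turned to -0.18 and that of ZEB2 to -0.0040, and without DMSO replicate 3 that of SOX4 to 0.26.

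Of the genes for RNA-binding proteins, MBNL1, a splicing regulator, held 361, 403 and 511 CPM under DMSO and 444, 445 and 503 CPM under WM-1119 at its main start region on chromosome 3 (152265528 to 152275484), with a log2 change of 0.14 ± 0.14 (SE, adjusted p = 0.551 by limma). IGF2BP2, which binds and stabilises mRNAs, held 419.8, 529.9 and 735 CPM under DMSO and 502, 619.8 and 672 CPM under WM-1119 at chromosome 3 position 185813271 to 185827465, with a log2 change of 0.12 ± 0.15 (SE, adjusted p = 0.634 by limma). In both genes DMSO replicate 1 was the lowest library and DMSO replicate 3 the highest. CPEB4, which binds cytoplasmic polyadenylation elements, had the weakest of the 10 strongest promoter regions, with 38.9, 23.9 and 33.0 CPM under DMSO and 38.7, 28.5 and 33.9 CPM under WM-1119 at chromosome 5 position 173887588 to 173889221. Its log2 change was 0.093 ± 0.23 (SE, adjusted p = 0.807 by limma), and the sign turned to -0.096 without DMSO replicate 2. SENP6, the SUMO protease gene, held 309, 409 and 582 CPM under DMSO and 448, 556 and 585 CPM under WM-1119 at chromosome 6 position 75600644 to 75604871. DMSO replicate 1 was lowest and the highest DMSO and WM-1119 libraries were nearly level; the log2 change was 0.33 ± 0.16 (SE, adjusted p = 0.376 by limma). CCNA1, the cyclin A1 gene, held 68.1, 70.1 and 63.5 CPM under DMSO and 78.4, 78.1 and 66.0 CPM under WM-1119 at chromosome 13 position 36431167 to 36433370, a narrow range with a log2 change of 0.14 ± 0.18 (SE, adjusted p = 0.644 by limma).

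Away from promoters, 1 region passed, with a lower estimate, and it lay inside SENP6. This call depended on the setting and on single libraries, as given below. Of 172 other regions 163 had a mean of at least 1 CPM and were tested. All counts here are of CPM as deposited. The 1 call compares with 0.0739 % of all regions away from coding starts. A lower estimate was found in 155 of the 163, beside 77.2 % of all tested regions and 89.5 % of those away from coding starts. Of the 163, 58 had an unadjusted limma p under 0.05 in that direction, against 0 in the other. The background shares for those unadjusted calls were 10.8 % lower and 2.58 % higher among all tested regions. The lower share was 13.6 % among all regions away from coding starts. In 42 of the 163 all WM-1119 libraries lay below all DMSO libraries, beside 13.2 % of all tested regions and 16 % away from coding starts. The median log2 change of the 163 was -0.80, beside -0.47 over all regions and -0.61 over those away from coding starts. Weak regions dominate these figures: 105 of the 163 had a mean of 1 to 5 CPM. Of the 21 with a mean of at least 20 CPM, 12 had such a p in the lower direction, and their median log2 change was -0.54. Over all regions away from coding starts of that strength the share was 12.7 % and the median 0.025. SENP6 supplied 6 of the 21 and 5 of the 12, and MEF2C 5 and 3. Regions of 1 gene are not independent. Without SENP6, 7 of 15 had such a p, and the median was -0.41. With DMSO replicate 3 as the only control the median of the 21 was -0.22, and 12 of them lay below that library in all 3 WM-1119 libraries, as did 31.4 % of such regions in general.

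These counts moved with single libraries and with the scaling. Without DMSO replicate 3, 127 member regions passed, 122 of them lower, as did 43.2 % of all regions. Without DMSO replicate 1, DMSO replicate 2, WM-1119 replicate 2 or WM-1119 replicate 3, 0 passed, with 29, 16, 14 and 18 of the tested member regions lower at an unadjusted limma p under 0.05, beside 4.6, 3.53, 3.62 and 3.17 % of all regions. With the background of each library and chromosome subtracted, 1 member region passed beside 0.17 % of all regions, and 44 were lower at an unadjusted p under 0.05 beside 8.52 %. edgeR on the reads recovered in 5 libraries called 0, with 12 lower at an unadjusted p under 0.05 beside 3.97 % of all regions. The median log2 change of the 180 tested member regions, -0.77 beside -0.47 over all regions, became -0.27 beside 0.0087 after quantile normalization and 0.00059 beside 0.30 after median centring.

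**Figure D2:**
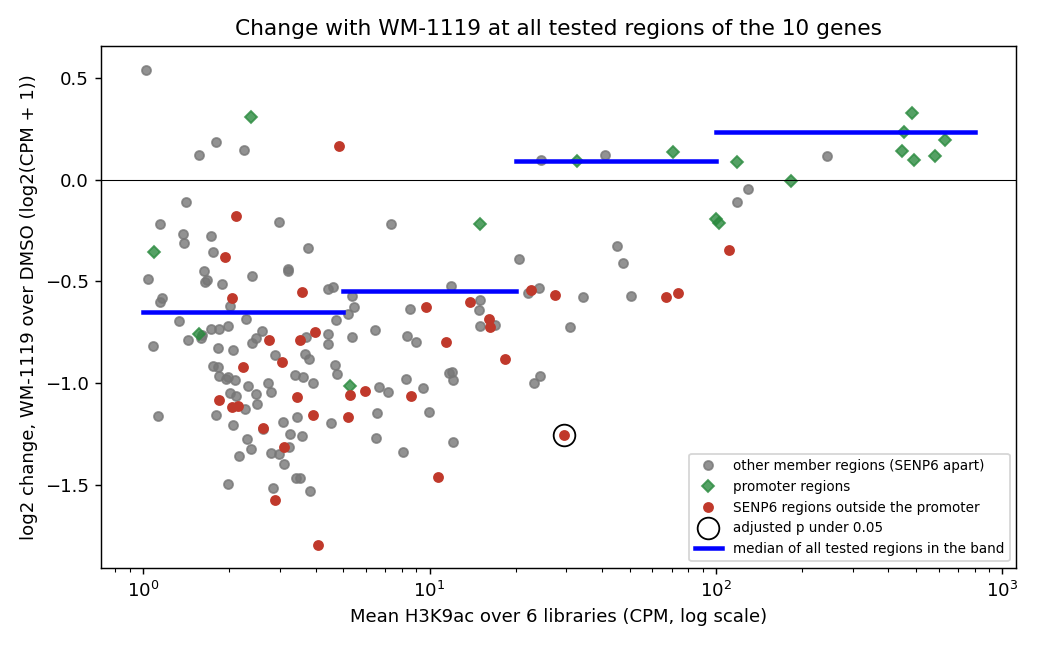
Log2 change with WM-1119 (y axis) against mean H3K9ac in CPM on a log axis (x axis), with 1 point per tested region of the 10 genes. Blue lines give the median of all tested regions in 4 bands of strength; the ringed point is the SENP6 region at -1.25, and in CPM as deposited the other regions outside promoters lie mostly below 0 while strong promoter regions lie near or just above it.

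SENP6 spans chromosome 6 position 75601880 to 75718281, and its start is the GC-rich promoter printed above. The region that passed, at 75622540 to 75624098, begins 20.7 kb into the gene. It held 54.2, 35.4 and 36.2 CPM under DMSO (replicates 1, 2 and 3) and 21.4, 12.6 and 17.2 CPM under WM-1119 (replicates 1, 2 and 3). All 3 WM-1119 libraries lay below all 3 DMSO libraries. The means were 42.0 ± 10.6 and 17.1 ± 4.38 CPM (SD, n = 3 each), and the log2 change came to -1.25 ± 0.25 (SE, adjusted p = 0.0114 by limma). The change ran from -1.42 to -1.06 with 1 library left out. The call was lost without DMSO replicate 1 or 2 (adjusted p by limma 0.171 and 0.731) and without WM-1119 replicate 2 or 3 (0.654 and 0.143). It was also lost with a minimum mean of 10 CPM (0.209), quantile normalization (0.26), median centring (0.578, log2 change -0.48), limma without trend and robust fitting (0.45) and edgeR (0.864, log2 change -0.67). The edgeR fit left out WM-1119 replicate 2, the lowest library in this region, and rescaled the libraries, so it differed from limma in more than the method. With the background subtracted the log2 change was -1.79 (adjusted p by limma 0.00313), and against DMSO replicate 3 alone it was -1.07.

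The other strong regions inside SENP6 had lower estimates as well, none past the adjusted threshold. The neighbour at 75618312 to 75622331 held 70.9, 89.3 and 80.7 CPM under DMSO and 52.0, 48.3 and 60.4 CPM under WM-1119, groups that did not overlap, with a log2 change of -0.58 ± 0.18 (SE, adjusted p = 0.306 by limma). A second cluster began 44.9 kb into the gene. Its first region, at 75646810 to 75649620, was the strongest in the gene outside the promoter and held 101.5, 126 and 147 CPM under DMSO and 101.5, 87.3 and 102 CPM under WM-1119. DMSO replicate 1 and WM-1119 replicates 1 and 3 were level there, and the log2 change was -0.35 ± 0.17 (SE, adjusted p = 0.365 by limma). The adjoining region at 75649701 to 75653923 held 83.4, 98.6 and 82.7 CPM under DMSO and 60.3, 56.1 and 62.0 CPM under WM-1119, with all WM-1119 libraries below all DMSO libraries and a log2 change of -0.56 ± 0.18 (SE, adjusted p = 0.307 by limma). Of the 36 tested SENP6 regions outside the promoter 35 had a lower estimate, beside 89.5 % of all regions away from coding starts. In 14 the groups did not overlap, all lower, beside 16 % of those regions. Their median log2 change was -0.84, and it was -0.29 against DMSO replicate 3 alone. The promoter of the same gene had its estimate on the other side of 0, at 0.33.

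**Figure D3:**
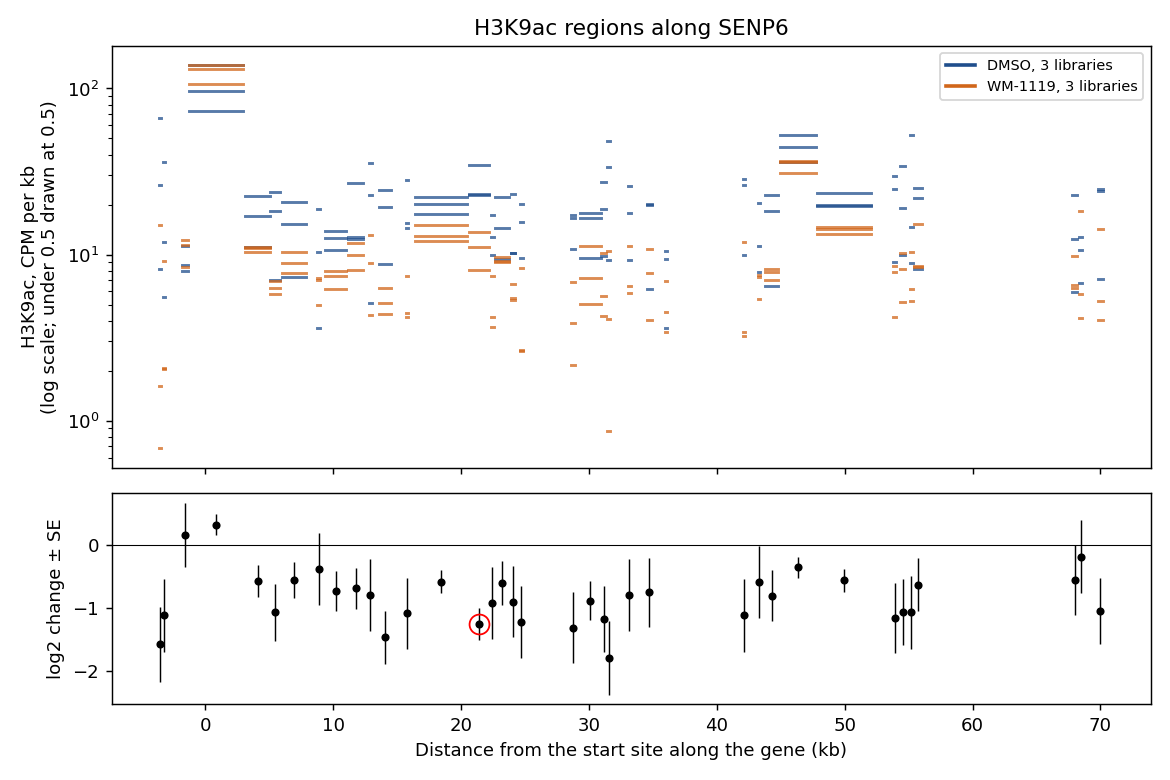
H3K9ac regions along SENP6 by distance from the start site in kb. The upper panel draws each region as 1 line per library at its CPM per kb on a log axis (DMSO blue, WM-1119 orange), and the lower panel gives the log2 change ± SE; the ring marks the region with an adjusted p under 0.05, at -1.25.

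MEF2C showed how acetylation differed between start sites of 1 gene. Its CpG-rich start at 88883184 and the neighbouring start at 88884536 share the 19.4 kb domain, at 32.4 CPM per kb. The 3 starts from 88823927 to 88827192, at 28.7 % to 47.3 % GC, share a region at 88823184 to 88828642 with 18.3 CPM per kb, which held 119.6, 91.6 and 109.6 CPM under DMSO and 103, 85.1 and 91.3 CPM under WM-1119. Near the start at 88785511 the strongest of 3 regions (88785964 to 88786325) had a mean of 5.29 CPM, and that at 88904105 had none. None of the 6 promoter regions of MEF2C passed. Of the 3 strongest regions outside the promoters, that at 88812697 to 88817142 held 75.1, 66.2 and 42.1 CPM under DMSO and 42.0, 35.9 and 41.5 CPM under WM-1119, and that at 88818172 to 88820793 held 43.1, 33.9 and 18.6 CPM under DMSO and 16.5, 13.1 and 14.3 CPM under WM-1119. In both the WM-1119 libraries lay below all DMSO libraries, and in the first by under 1 CPM. Their log2 changes were -0.57 ± 0.20 (SE, adjusted p = 0.329 by limma) and -0.997 ± 0.28 (SE, adjusted p = 0.229 by limma). The region at 88829219 to 88831087, nearer to the middle starts, overlapped between groups, with a log2 change of -0.39 ± 0.28 (SE, adjusted p = 0.456 by limma). The third of the strongest, at 88731671 to 88735996, overlapped between groups with a log2 change of -0.32 ± 0.21 (SE, adjusted p = 0.419 by limma).

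**Figure D4:**
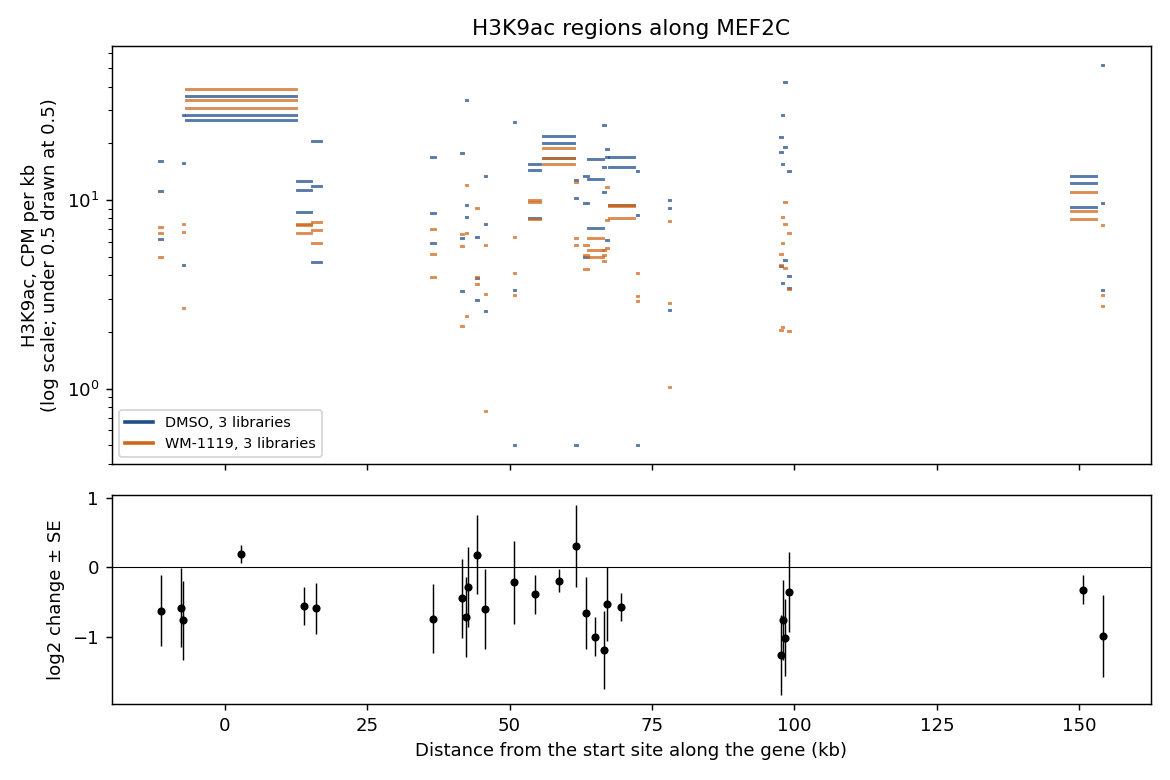
H3K9ac regions along MEF2C by distance in kb from the start at 88884536, drawn as for SENP6. The domain at the start carries 32.4 CPM per kb on average, and the region near the starts in the middle of the gene carries 18.3.

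The internal MYB regions had lower estimates too. The region at 135190532 to 135192280 held 32.0, 34.7 and 20.1 CPM under DMSO and 21.8, 16.6 and 19.4 CPM under WM-1119. The next, at 135194904 to 135196491, held 47.3, 35.4 and 17.2 CPM under DMSO and 14.8, 17.3 and 13.9 CPM under WM-1119. That at 135209597 to 135210363 held 26.4, 18.5 and 8.82 CPM under DMSO and 8.15, 4.20 and 6.61 CPM under WM-1119, the only one of the 3 whose groups did not overlap. Their log2 changes were -0.53 ± 0.26, -0.97 ± 0.28 and -1.29 ± 0.40 (SE), with limma adjusted p of 0.263 to 0.369. In all 3 the DMSO replicates 1 and 2 were the highest libraries and DMSO replicate 3 was near the WM-1119 libraries. All 14 tested MYB regions outside the promoter had a lower estimate, with a median of -0.91, beside 89.5 % and -0.61 for all regions away from coding starts. Against DMSO replicate 3 alone the median was -0.11.

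SOX4 and ZEB2 had little acetylation inside the gene past the promoter and had a further region upstream. The SOX4 region, 4.05 kb before the start (21586983 to 21589696), held 108, 129 and 158 CPM under DMSO and 115, 125 and 139.7 CPM under WM-1119, with a log2 change of -0.048 ± 0.16 (SE, adjusted p = 0.861 by limma). The ZEB2 region, 2.19 kb before the start (144522305 to 144525252), overlaps the non-coding genes LINC01412 and LINC02993 and held 37.5, 31.6 and 49.6 CPM under DMSO and 39.8, 41.8 and 45.8 CPM under WM-1119, with a log2 change of 0.12 ± 0.21 (SE, adjusted p = 0.724 by limma). In both the groups overlapped and DMSO replicate 3 was the highest library. Inside these genes 1 SOX4 region and 4 tested ZEB2 regions had means of at most 3.25 CPM. The named ones held 4.98 ± 1.56 and 1.53 ± 0.803 CPM in SOX4, at 21598073 to 21598412, and in ZEB2 2.66 ± 1.26 and 1.01 ± 1.04 CPM at 144507102 to 144507318 and 2.48 ± 1.55 and 0.988 ± 0.571 CPM at 144505718 to 144505934 (DMSO and WM-1119, SD, n = 3 each). These lie near the level that a count of 0 allows in DMSO replicate 1.

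No start site of LMO2 was listed, so whether its other regions hold one cannot be told here. LMO2 carried an internal region as strong as its end region. At 33867450 to 33871470 it held 86.2, 135 and 152 CPM under DMSO and 98.0, 121 and 119 CPM under WM-1119, with a log2 change of -0.11 ± 0.17 (SE, adjusted p = 0.698 by limma) and overlapping groups. A weaker region at 33888955 to 33890459 held 25.0, 17.7 and 14.4 CPM under DMSO and 11.4, 11.2 and 10.2 CPM under WM-1119. All WM-1119 libraries were below all DMSO libraries there, with a log2 change of -0.72 ± 0.33 (SE, adjusted p = 0.359 by limma). The third named region, at 33895375 to 33895803 beyond the gene, had means of 5.68 ± 2.93 and 2.16 ± 0.762 CPM (SD, n = 3 each).

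In MBNL1 the strongest region outside the listed starts, at 152240524 to 152248676, spans the annotated 5′ end of the gene. It held 190.5, 237 and 276 CPM under DMSO and 260.0, 239 and 257 CPM under WM-1119, overlapping groups with a log2 change of 0.12 ± 0.15 (SE, adjusted p = 0.627 by limma). A second promoter region at 152297861 to 152303380 held 121, 126 and 84.1 CPM under DMSO and 123, 79.0 and 84.1 CPM under WM-1119, with a log2 change of -0.21 ± 0.18 (SE, adjusted p = 0.493 by limma). Between them a region at 152256324 to 152260370 held 63.9, 68.5 and 32.1 CPM under DMSO and 48.9, 45.1 and 26.7 CPM under WM-1119. Beyond them a region at 152320104 to 152323311 held 50.05, 37.0 and 28.5 CPM under DMSO and 32.4, 15.9 and 21.6 CPM under WM-1119. Both overlapped between groups, with log2 changes of -0.41 ± 0.24 and -0.72 ± 0.25 (SE, adjusted p by limma 0.402 and 0.317). Of 49 other MBNL1 regions, all tested, 47 had a lower estimate, with a median of -0.84, again beside 89.5 % and -0.61. Against DMSO replicate 3 alone that median was -0.013.

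IGF2BP2 had 28 regions outside its promoter, 25 of them tested, and in 12 of the 25 all WM-1119 libraries lay below all DMSO libraries, beside 16 % of all regions away from coding starts. The strongest, at 185744850 to 185747356, held 55.6, 36.2 and 32.7 CPM under DMSO and 31.3, 29.7 and 20.6 CPM under WM-1119. Next came 185720013 to 185721209, with 19.5, 21.6 and 14.2 CPM under DMSO and 14.5, 9.003 and 10.9 CPM under WM-1119, and 185731907 to 185732949, with 15.3, 15.4 and 11.6 CPM under DMSO and 5.06, 5.20 and 7.40 CPM under WM-1119. The first and last of these did not overlap between groups, and the log2 changes were -0.58 ± 0.23, -0.64 ± 0.33 and -1.14 ± 0.41 (SE), none past the adjusted threshold (adjusted p by limma 0.329 to 0.376). The median over the 25 was -0.98, and -0.31 against DMSO replicate 3 alone. CPEB4 and CCNA1 had 1 region each outside the promoter. That of CPEB4, 29.3 kb into the gene at 173917688 to 173919000, held 26.4, 20.8 and 23.8 CPM under DMSO and 27.1, 26.6 and 22.4 CPM under WM-1119, with a log2 change of 0.098 ± 0.25 (SE, adjusted p = 0.814 by limma) and no separation of groups. That of CCNA1 at 36433872 to 36434778 held 25.0, 18.5 and 6.68 CPM under DMSO and 8.81, 7.00 and 5.98 CPM under WM-1119, with a log2 change of -0.94 ± 0.40 (SE, adjusted p = 0.352 by limma). In the CCNA1 region DMSO replicates 1 and 2 were high and DMSO replicate 3 was within the WM-1119 range.

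Within a library, the share of a gene's CPM that lies outside its promoter regions does not depend on the scaling between libraries. In SENP6 this share was 70.0, 62.5 and 47.1 % in DMSO and 48.3, 37.9 and 39.5 % in WM-1119. The shallow DMSO libraries were high and DMSO replicate 3 lay inside the WM-1119 range. In IGF2BP2 it was 37.6, 28.9 and 13.97 % in DMSO and 18.3, 12.2 and 11.1 % in WM-1119, and in MYB 36.1, 21.9 and 9.35 % in DMSO and 14.2, 9.48 and 8.50 % in WM-1119. Here too the third DMSO library was within the WM-1119 range, as it was in MEF2C, MBNL1, CCNA1 and ZEB2. The mean differences, WM-1119 minus DMSO, were -18.0 percentage points in SENP6, -12.97 in IGF2BP2, -11.7 in MYB, -10.2 in CCNA1, -9.76 in MEF2C and -9.02 in MBNL1. ZEB2, SOX4 and CPEB4 differed by -1.59, -1.34 and 0.119 points. LMO2 was the gene whose groups did not overlap, at 56.6, 63.0 and 58.4 % in DMSO and 48.0, 53.3 and 54.6 % in WM-1119. It is also the gene without a listed start site, so its share rests on its annotated ends. Its mean difference was -7.38 points, and -4.85 with a promoter window of 2 kb. No gene passed: the smallest exact two-sided permutation p was 0.1 for LMO2, the lowest that 3 against 3 libraries can give, and 0.375 after Benjamini-Hochberg adjustment over the 10 genes. The count of genes without overlap was carried by single libraries, at 9 without DMSO replicate 3 and 5 without WM-1119 replicate 1. The same share was not computed over all coding genes, so neither these counts nor the falls can be called particular to the 10. Over all tested regions the median log2 change was -0.61 away from coding starts and 0.082 at them.

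**Figure D5:**
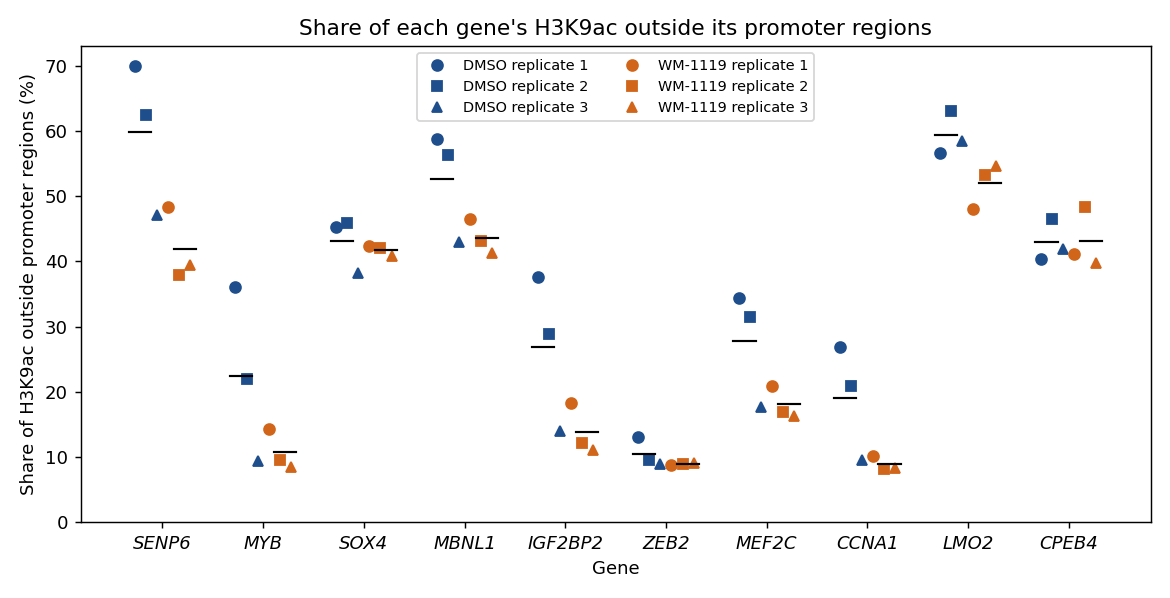
Share of each gene's H3K9ac outside its promoter regions, in %, with 1 point per library (DMSO blue, WM-1119 orange) and a bar at each group's mean. DMSO replicates 1 and 2 are the highest points in 8 genes, the exceptions being LMO2 and CPEB4, and of the 10 only LMO2 has groups that do not overlap.

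A list of 28 further genes tied to KMT2A fusions, drawn up with earlier results of these data known, was read at promoters in the same way. Of the 28, 23 had a promoter or end region, in 21 separate regions, and 20 of these were tested. None passed in limma (smallest adjusted p 0.339), while without adjustment 2 were higher and 1 was lower (p under 0.05), beside 8.16 % higher and 2.11 % lower among regions at coding starts. The median log2 change was 0.12. The 4 smallest p belonged to PBX3, a homeobox cofactor, to the Polycomb gene BMI1, to RNF220, a ubiquitin ligase gene, and to the region shared by HOXA7, HOXA9 and HOXA10. PBX3 held 531, 642 and 749 CPM under DMSO and 690.2, 837 and 909.8 CPM under WM-1119. BMI1 held 774, 939 and 1272 CPM under DMSO and 1077, 1220.2 and 1336 CPM under WM-1119. RNF220 held 129, 146 and 164 CPM under DMSO and 129, 79.7 and 139 CPM under WM-1119, where WM-1119 replicate 2 was lowest. The HOXA region held 747, 956 and 1175 CPM under DMSO and 1014, 1087 and 1309.5 CPM under WM-1119. Their log2 changes were 0.35 ± 0.13, 0.31 ± 0.13, -0.37 ± 0.17 and 0.26 ± 0.13 (SE). In all 4 regions the groups overlapped.

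Across the 6 libraries most of the 10 strongest promoter regions moved together. Pearson's r between a gene's log2 values and the mean profile of the 10 was 0.988 for MBNL1, 0.973 for SENP6, 0.953 for IGF2BP2, 0.945 for MEF2C, 0.936 for ZEB2, 0.906 for SOX4 and 0.868 for MYB. LMO2 followed it less (0.494), and CPEB4 and CCNA1 did not (-0.0642 and -0.200). Each gene is part of the mean it was compared with. Among 8924 other coding genes with a promoter region of at least 10 CPM, the 3 most like the mean profile were UFL1, RCC2 and TMEM187, with r of 0.999, 0.998 and 0.997 over the 6 libraries. Such profiles were common: 1441 of those genes had an r over 0.9, and the median was 0.604. All points share the libraries and their depth and background, and no p is given.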

How the data were processed

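H3K9ac chromatin immunoprecipitation libraries of 3 DMSO and 3 WM-1119 samples were compared, with groups and numbers taken from the titles. Bowtie2, MACS2, SAMtools and bedtools were used on hg38, per the submitters' processing notes, which give no roles. The merging of regions is not described in these notes or labels. The deposited values are named TPM by the authors per the file headers, but they behave as CPM: each library sums to 1000000, and values are whole multiples of 1 step whatever the width. The design assumed TPM; the test stayed the same. edgeR was run on the reads recovered in 5 libraries, with its own scaling factors between libraries. WM-1119 replicate 2 was left out of that fit, although its values also fell on whole multiples of its step. The file's starts were read as counted from 0, and 1 was added. No column of per-sample values was left unused.

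Regions averaging 1 CPM or more, 44763 in number, were tested on log2(CPM + 1) with limma 3.58.1 in R 4.3.3, using a trended and robust variance, treatment alone as the model and Benjamini-Hochberg adjustment. Gene spans and 300-base promoter windows came from RefSeq (GRCh38.p14). Regions at coding starts are those within 1 kb of a listed RefSeq start site of a coding gene. Coding genes without a listed start, LMO2 among them, add none. Their promoters can therefore count among the regions away from coding starts. Shares were compared by exact permutation. Alternatives were pseudocounts, filters, scalings, a replicate block, array weights, background subtraction, edgeR 4.0.16 and leaving out libraries. Filters were recomputed on the libraries fitted. The lone DMSO library left without DMSO replicates 1 and 2 is assumed to vary like the WM-1119 libraries.

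The members and lists were chosen with earlier results of these data known. Named were each gene's strongest promoter region, its up to 3 strongest other regions, any region past an adjusted p of 0.05, 4 genes of the list of 28 by p, and the 3 genes most like the members; other regions named were chosen after their values were seen. On simulated counts the limma fit recovered 14% of 2-fold and 89% of 4-fold changes among 200 changed of 43761 regions and called 0 others. The changed regions were drawn only from those with a mean of at least 10 CPM. Of the 180 tested member regions 49 reached that mean, and recovery in weaker regions was not simulated. The simulation gave all libraries the same mean profile apart from the changes, a dispersion of 0.05 and their own depths. It left out their differences in background, so it cannot tell how many calls in these data are false. No library was a copy of another (chi-square per degree of freedom at least 1.55). Depth spanned 17.7-fold. Intervals cover counting error only. Other tools were matplotlib 3.10.9, scipy 1.17.1, numpy 2.4.6 and pandas 2.3.3 under Python 3.11.15.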

Additional observations from a re-analysis of the deposited data

How the results depend on the processing

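The count of calls depended on the setting. It was 27 regions in all and 1 of the member genes as reported. It stayed within 1.5 times of that with a pseudocount of 0.1 or 5 or no filter. Array weights gave 34995 (78.2 % of all regions) and 163 of 180. Median centring gave 2 (both higher) and 0, and background subtraction 76 and 1. The count was 2 and 0 with a minimum mean of 10 CPM and 1 and 0 with quantile normalization. It was 0 and 0 with limma without trend and robust fitting (4903 lower and 33 higher at an unadjusted p under 0.05), with edgeR on recovered reads (1777 and 350) and without DMSO replicates 1 and 2 (728 and 1338). Leaving out 1 library gave 0 to 19600 calls in all and 0 to 127 in the member genes, the highest without DMSO replicate 3 and the lowest without DMSO replicate 2 (1503 and 398 at an unadjusted p under 0.05). The cause was not tested.

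A replicate block raised the calls to 496 in all, 1.11 % of 44763 regions, and to 8 of 180 in the member genes. Libraries with the same number had deviations that correlated at 0.22, 0.05 and 0.33, and those with different numbers at -0.27 to 0.06. DMSO replicate 2 correlated about as well with WM-1119 replicate 1 (0.06) as with its own number. The titles do not state that the numbers pair the samples, and these values do not settle it. The block is therefore given as an alternative only. With the block 5 more named regions passed, those of MEF2C at 88818172 (adjusted p by limma 0.0157), MYB at 135194904 (0.0196) and 135209597 (0.04), and SENP6 at 75618312 (0.0474) and 75649701 (0.0488).

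Signs of small changes turned under some settings (log2 change by gene and region start). With median centring they were 0.45 at MEF2C (88731671), 0.20 at MEF2C (88812697), 0.24 at MYB (135190532), 0.039 at ZEB2 (144505718), 0.72 at SOX4 (21586983), 0.76 at SOX4 (21593476), 0.66 at LMO2 (33867450), 0.055 at LMO2 (33888955), 0.36 at MBNL1 (152256324), 0.050 at MBNL1 (152320104), 0.20 at SENP6 (75618312), 0.43 at SENP6 (75646810), 0.21 at SENP6 (75649701), 0.13 at IGF2BP2 (185720013), 0.20 at IGF2BP2 (185744850) and 0.40 at RNF220 (44405014). With edgeR they were 0.16 at MEF2C (88731671), 0.0042 at MYB (135190532), 0.31 at SOX4 (21586983), 0.27 at SOX4 (21593476), 0.14 at LMO2 (33867450), 0.059 at SENP6 (75646810) and 0.25 at RNF220 (44405014). With quantile normalization they were -0.019 at MEF2C (88872005), -0.075 at MYB (135179417), -0.11 at LMO2 (33890541), -0.097 at MBNL1 (152240524), -0.076 at MBNL1 (152265528), -0.11 at IGF2BP2 (185813271), -0.016 at CCNA1 (36431167) and -0.040 at HOXA7 (27148006). With array weights it was 0.17 at SOX4 (21593476). Without DMSO replicates 1 and 2 they were -0.058 at MEF2C (88872005), -0.34 at MYB (135179417), -0.21 at ZEB2 (144507366), -0.22 at ZEB2 (144522305), -0.031 at LMO2 (33890541), -0.13 at MBNL1 (152240524), 0.27 at MBNL1 (152256324), -0.14 at MBNL1 (152265528), -0.15 at SENP6 (75600644), -0.31 at IGF2BP2 (185813271), 0.091 at CCNA1 (36433872), -0.076 at BMI1 (22308156) and -0.056 at HOXA7 (27148006). With 1 library left out, changes that turned sign ranged from -0.18 to 0.31 for MYB (135179417), -0.0040 to 0.46 for ZEB2 (144507366), -0.024 to 0.29 for ZEB2 (144522305), -0.18 to 0.090 for SOX4 (21586983), -0.20 to 0.26 for SOX4 (21593476), -0.35 to 0.055 for LMO2 (33867450), -0.023 to 0.24 for MBNL1 (152240524), -0.096 to 0.24 for CPEB4 (173887588) and -0.073 to 0.33 for IGF2BP2 (185813271). With 1 library left out, the difference in percentage points ranged from -2.48 to 1.92 for the share outside promoters in CPEB4 and -3.79 to 0.0157 for the share outside promoters in SOX4. Without DMSO replicates 1 and 2 the difference in the share outside promoters turned to 0.457 in MEF2C, 1.39 in MYB, 0.0285 in ZEB2, 3.56 in SOX4 and 0.714 in MBNL1 percentage points. The number of genes whose shares did not overlap, 1 as reported, was 0 with a promoter window of 2 kb (which leaves CCNA1 no other region), 2 after background subtraction, and 1 to 9 with 1 library left out. Counting the annotated 5′ end of MBNL1 as a start was chosen after seeing the data and left it at 1. No such count was made over all coding genes. Depth limits the weak regions, since 1 read in DMSO replicates 1 and 2 is worth 1.39 and 0.770 CPM.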
